A study of Homo sapiens with 12 samples.

Results

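The 10 genes described here are the G1 cyclins CCNE1, CCNE2, CCND1 and CCND3, the cyclin-dependent kinases CDK2, CDK4 and CDK6, the kinase inhibitors CDKN1A (p21) and CDKN1B (p27), and FBXW7, the receptor that marks cyclin E for destruction. They were taken by gene name from a table of 58735 genes, and 10 of 10 were found and passed the filter on low counts. RNA was sequenced from Ovcar8, a widely used cell line of high-grade serous ovarian cancer, in 4 groups of 3 libraries. These were CCNE1 overexpression with shTMLHE #1 (shTMLHE 1 cells), CCNE1 overexpression with shTMLHE #2 (shTMLHE 2 cells), CCNE1 overexpression alone (CCNE1 cells) and control (control cells). By its design text the study compared CCNE1 overexpression with control, and each hairpin with CCNE1 overexpression. All 4 groups, control included, had received lentivirus and puromycin. No group with a hairpin against another target was used here, so the effect of losing TMLHE and of carrying any hairpin cannot be told apart. The labels give 1 population per group and leave unsaid whether the replicates were cultured apart, so every p-value reflects only how far these libraries vary, which may be technical.

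Cyclins are the regulatory subunits that switch on cyclin-dependent kinases. The D-type cyclins, induced by growth signals, act with CDK4 or CDK6 to begin the phosphorylation of the retinoblastoma protein, and the E-type cyclins then act with CDK2 to drive the step into S phase. CDKN1A, which p53 induces, and CDKN1B both inhibit CDK2 complexes. FBXW7 is the substrate receptor of a ubiquitin ligase that sends phosphorylated cyclin E to the proteasome, and CCNE1 is the member of this network that is often amplified in high-grade serous ovarian cancer. Much of this control acts on protein stability and phosphorylation, which RNA counts do not measure.

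Library totals ran over 14.9 to 16.3 M counts in shTMLHE 1 cells, 14.6 to 19.9 M in shTMLHE 2 cells, 15.8 to 21.5 M in CCNE1 cells and 14.1 to 16.6 M in control cells. The mean GC content of the counted transcripts was 51.6 to 51.9%, 49.9 to 50%, 52.8 to 52.9% and 53.1 to 53.3% in the same order of groups, so the composition of the libraries varied with the group. TMLHE, the targeted gene and an enzyme of carnitine synthesis, had 13 to 21 counts per library in shTMLHE 1 cells, 6 to 13 in shTMLHE 2 cells, 177 to 293 in CCNE1 cells and 182 to 262 in control cells, which matches the labels. Of the ovarian carcinoma markers, PAX8 (68.6 to 153 CPM over the 12 libraries), MSLN, KRT7, KRT8 and KRT18 were present, while MUC16, which encodes CA125, was at 0 counts and WT1 did not exceed 0.952 CPM. The leukocyte marker PTPRC and the endothelial marker CDH5 had at most 2 counts in any library, and the fibroblast marker DCN had 0.

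Levels are in CPM, a gene's counts relative to the TMM-scaled library total, errors of log2 fold changes are standard errors (SE), and a gene was called changed at an edgeR p-value adjusted over 15378 tested genes of under 0.05. Between CCNE1 and control cells 44.2% of all tested genes were called, and of the 10 genes 5 were called higher and 1 lower, against 25.1% and 19.1% of all genes. Between shTMLHE 1 and CCNE1 cells 60.7% of all genes were called, and of the 10 genes 6 were higher and 4 lower, against 30.4% and 30.3%. Between shTMLHE 2 and CCNE1 cells 73% were called, and of the 10 genes 5 were higher and 4 lower, against 36.8% and 36.2%. Between shTMLHE 1 and shTMLHE 2 cells 60.3% were called, and of the 10 genes 4 were higher and 6 lower, against 31.3% and 29%. With so many genes called, a call alone says little, and the sizes that follow are the more informative values. The median log2 fold changes of the 10 genes in these comparisons were 0.29, 0.73, 0.15 and -0.43, beside 0.05, 0.03, 0.03 and -0.01 over all tested genes. Both hairpin comparisons share the same 3 CCNE1 libraries, so their values stand side by side without a count of what they have in common.

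**Figure D1:**
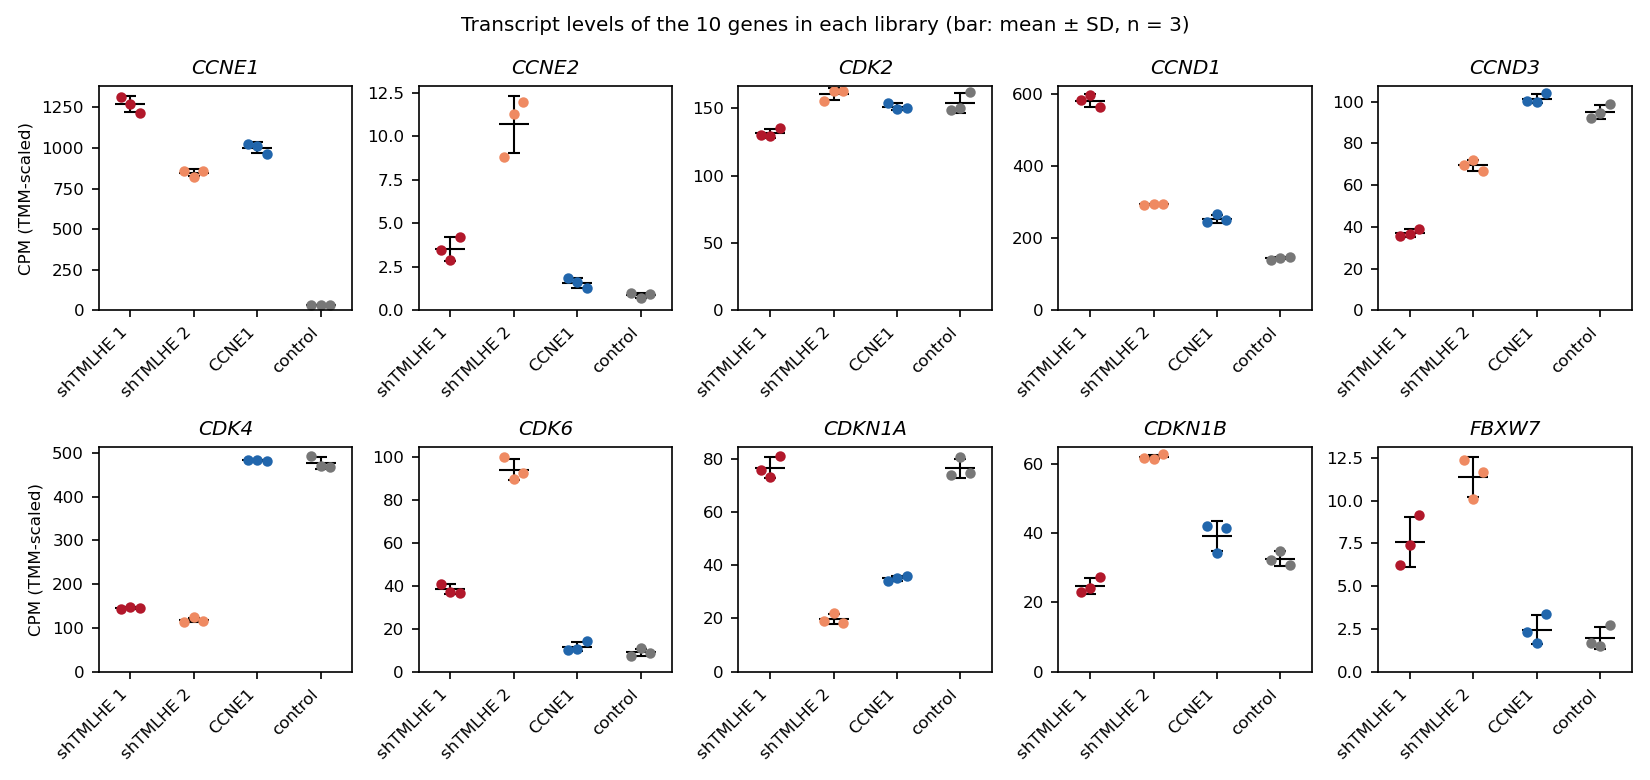
Level of each of the 10 genes in CPM on a linear axis, with 1 point per library and a bar at the mean ± SD (n = 3 per group). CDK4 is high in CCNE1 and control cells and low in both hairpin groups, CDK6 runs the other way, and CDKN1A and CDKN1B stand on opposite sides of the CCNE1 cells with the 2 hairpins.

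**Figure D2:**
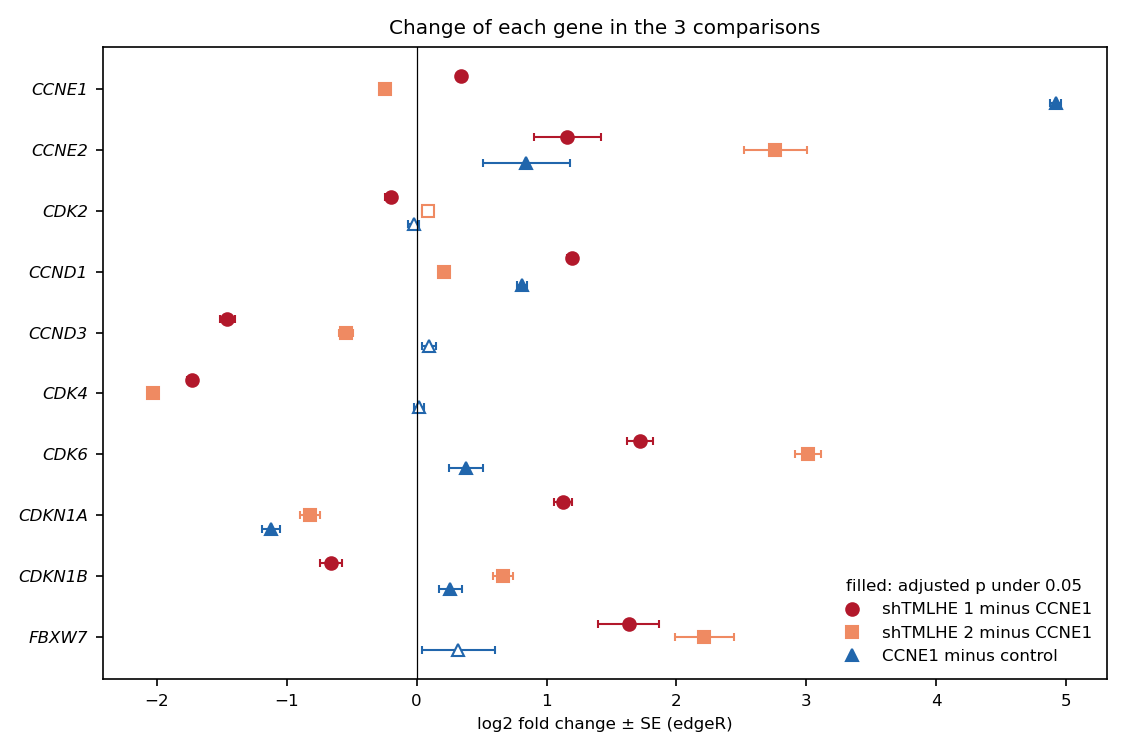
Log2 fold change ± SE (edgeR) of each gene, with shTMLHE 1 minus CCNE1 as circles, shTMLHE 2 minus CCNE1 as squares and CCNE1 minus control as triangles. Filled symbols passed an adjusted p of 0.05, and the values spread between -2.03 for CDK4 with shTMLHE 2 and 4.92 for CCNE1 in CCNE1 cells.

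The genes lie on 7 chromosomes. CCNE1 (ENSG00000105173), which encodes cyclin E1, lies at chr19:29811898-29824308 on the plus strand of GRCh38. It stood at 1317, 1271 and 1219 CPM in shTMLHE 1 cells, at 860.3, 823 and 858 in shTMLHE 2 cells, at 1027, 1015 and 963 in CCNE1 cells and at 33.5, 34.1 and 31.6 in control cells. Every library given the CCNE1 construct was far above control, and the 4 groups did not overlap. The rise in CCNE1 cells was 30.3-fold against control cells (4.92 ± 0.04, SE, edgeR adjusted p = 2.88e-44), and gene counts do not separate reads of the resident gene from those of an introduced copy. Against CCNE1 cells, CCNE1 was higher by 0.34 ± 0.03 with shTMLHE 1 (SE, edgeR adjusted p = 1.39e-11). With shTMLHE 2 it was at -0.24 ± 0.03 (edgeR adjusted p = 3.25e-08), but this direction depended on the scaling, at 0.29 under total counts and 0.20 with the trend of changes along GC content and transcript length (the GC trend) removed. Between the hairpins, CCNE1 was higher with shTMLHE 1 by 0.58 ± 0.03 on the log2 scale (edgeR adjusted p = 3.13e-18), so the level of the driver itself was not matched between the hairpin groups.

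CCNE2 (ENSG00000175305), on the minus strand at chr8:94879770-94896678, encodes cyclin E2, the paralogue that can also activate CDK2. It stood at 3.45, 2.88 and 4.24 CPM in shTMLHE 1 cells, at 8.84, 11.3 and 11.9 in shTMLHE 2 cells, at 1.87, 1.60 and 1.27 in CCNE1 cells and at 0.976, 0.714 and 0.911 in control cells. These are low levels, resting on 52 to 70, 213 to 239, 20 to 29 and 9 to 14 counts per library, and the groups did not overlap. CCNE2 was higher with shTMLHE 1 than in CCNE1 cells by 1.16 ± 0.26 (SE, edgeR adjusted p = 0.000189). With shTMLHE 2 it was higher by 2.76 ± 0.24 (edgeR adjusted p = 4.9e-13), a 6.77-fold difference, and shTMLHE 2 exceeded shTMLHE 1 by 3.03-fold (edgeR adjusted p = 3.39e-08). Between CCNE1 and control cells the change was 0.84 ± 0.33 (edgeR adjusted p = 0.0372), a call that was lost without control replicate 1, 2 or 3 (0.94, 0.73 and 0.87) or CCNE1 replicate 1 or 2 (0.72 and 0.83), and also after removal of the GC trend (0.43). Of its exon bases, 37.1% are also covered by INTS8 on the opposite strand, and the strand setting of the counting is not given in the sources used here. INTS8 itself was at 0.04 with shTMLHE 1 and 0.21 with shTMLHE 2 against CCNE1 cells and passed in neither (edgeR adjusted p = 0.778 and 0.102).

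CDK2 (ENSG00000123374, chr12:55966769-55972784, plus strand), the kinase partner of cyclin E, had the smallest change of the 10 genes in both hairpin comparisons under TMM scaling, though not with shTMLHE 2 under upper quartile scaling, under total counts or with the GC trend removed. It stood at 129.9, 129.7 and 136 CPM in shTMLHE 1 cells, at 155, 163 and 163 in shTMLHE 2 cells, at 154, 149 and 151 in CCNE1 cells and at 149, 150.4 and 162 in control cells. Only the shTMLHE 1 libraries lay below all others, and CCNE1 and control cells overlapped. CCNE1 cells differed from control cells by -0.02 ± 0.04 (SE, edgeR adjusted p = 0.71), although cyclin E1 RNA differed 30.3-fold. With shTMLHE 1, CDK2 was at -0.20 ± 0.04 against CCNE1 cells (edgeR adjusted p = 0.000156), but at 0.19 under total counts and at -0.09, no longer called, once the GC trend was removed. With shTMLHE 2 it was at 0.09 ± 0.04 (edgeR adjusted p = 0.0751), and it passed at 0.61 under total counts and at 0.33 with that trend removed. Genes on the opposite strand cover 16.8% of the exon bases of CDK2. PMEL covers 89 bases, and the other gene, which covers 565, had 0 counts. PMEL itself was at -1.46 with shTMLHE 1 and -2.03 with shTMLHE 2 against CCNE1 cells (edgeR adjusted p = 5.51e-09 and 1.68e-12).

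CCND1 (ENSG00000110092, chr11:69641087-69654474, plus strand) encodes cyclin D1, which links growth signals to CDK4 and CDK6. It stood at 583, 599 and 564 CPM in shTMLHE 1 cells, at 291, 294 and 296 in shTMLHE 2 cells, at 245, 266 and 251 in CCNE1 cells and at 141, 146 and 148 in control cells. The 4 groups were fully separated, with shTMLHE 1 cells the highest. CCND1 was 2.29-fold higher with shTMLHE 1 than in CCNE1 cells (1.20 ± 0.04, SE, edgeR adjusted p = 1.13e-26), against 1.16-fold with shTMLHE 2 (0.21 ± 0.04, edgeR adjusted p = 4.24e-06). The hairpin groups differed from each other by 0.99 ± 0.04 (edgeR adjusted p = 4.96e-24). In CCNE1 cells CCND1 was 1.76-fold higher than in control cells (0.81 ± 0.04, edgeR adjusted p = 2.07e-19). LTO1 on the opposite strand covers 10.3% of the exon bases of CCND1. Against CCNE1 cells LTO1 itself was at 0.09 with shTMLHE 1 and 0.68 with shTMLHE 2 (edgeR adjusted p = 0.578 and 1.43e-05).

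CCND3 (ENSG00000112576, chr6:41934933-42050357, minus strand) encodes cyclin D3, another partner of CDK4 and CDK6. It stood at 35.4, 36.5 and 39.1 CPM in shTMLHE 1 cells, at 69.9, 72.0 and 66.8 in shTMLHE 2 cells, at 101, 99.9 and 104 in CCNE1 cells and at 92.2, 94.6 and 98.8 in control cells. Both hairpin groups lay below the others, and the libraries of CCNE1 and control cells were separate by a narrow margin. With shTMLHE 1, CCND3 was 2.75-fold lower than in CCNE1 cells (-1.46 ± 0.06, SE, edgeR adjusted p = 4.59e-23), and it stayed lower at -1.18 once the GC trend was removed. With shTMLHE 2 it was at -0.54 ± 0.05 (edgeR adjusted p = 1.7e-11), but at -0.02 under total counts and at 0.10 with the trend removed, and neither of those passed. CCNE1 minus control was 0.09 ± 0.06 (edgeR adjusted p = 0.17), and 0.27 with the trend removed, which passed. The third D-type cyclin, CCND2, had 0 to 2 counts in every library, so cyclin D2 RNA was close to undetected in these cells.

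CDK4 (ENSG00000135446, chr12:57747727-57756013, minus strand), the kinase that phosphorylates the retinoblastoma protein in G1, showed the sharpest fall of the 10 genes with either hairpin. It stood at 144, 147 and 145 CPM in shTMLHE 1 cells, at 114, 124 and 117 in shTMLHE 2 cells, at 484, 484 and 480.2 in CCNE1 cells and at 493, 471 and 467 in control cells. The hairpin libraries were all far below the other 6, and CCNE1 and control cells overlapped. CDK4 was 3.32-fold lower with shTMLHE 1 than in CCNE1 cells (-1.73 ± 0.04, SE, edgeR adjusted p = 2.51e-31) and 4.08-fold lower with shTMLHE 2 (-2.03 ± 0.04, edgeR adjusted p = 5.37e-34). CCNE1 minus control was 0.02 ± 0.04 (edgeR adjusted p = 0.74), and became 0.17 and passed once the GC trend was removed. With that trend removed the hairpin values were -1.50 and -1.54, and the difference between the hairpins, 0.30 ± 0.04, became 0.04 and was no longer called. TSPAN31, on the opposite strand, covers 43.2% of the exon bases of CDK4. Its own level was 13.2 ± 1.59 CPM in shTMLHE 1 cells, 15.6 ± 1.49 in shTMLHE 2 cells, 15.5 ± 2.97 in CCNE1 cells and 28.9 ± 2.48 in control cells (SD, n = 3). It was lower in CCNE1 than in control cells (-0.89 ± 0.13, SE, edgeR adjusted p = 2.28e-07), and it did not pass against CCNE1 cells with shTMLHE 1 (-0.24, edgeR adjusted p = 0.109) or shTMLHE 2 (-0.00, edgeR adjusted p = 0.986).

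CDK6 (ENSG00000105810, chr7:92604921-92836594, minus strand) encodes the other kinase that D-type cyclins activate. It stood at 41.0, 37.3 and 36.7 CPM in shTMLHE 1 cells, at 99.6, 89.8 and 92.6 in shTMLHE 2 cells, at 10.2, 10.6 and 14.1 in CCNE1 cells and at 7.46, 10.9 and 8.61 in control cells. Both hairpin groups were above every CCNE1 and control library, the opposite of CDK4, and CCNE1 and control cells overlapped. CDK6 was 3.29-fold higher with shTMLHE 1 than in CCNE1 cells (1.72 ± 0.10, SE, edgeR adjusted p = 2.35e-17) and 8.08-fold higher with shTMLHE 2 (3.01 ± 0.10, edgeR adjusted p = 4.02e-26). With the GC trend removed these changes were 1.00 and 1.79 and still passed (edgeR adjusted p = 6.8e-11 and 5.24e-19). CCNE1 minus control was 0.38 ± 0.13 (edgeR adjusted p = 0.016), a call that was lost without control replicate 1 or 3 (0.25 and 0.36) or CCNE1 replicate 3 (0.22), and that became -0.04 with the trend removed.

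The promoter windows of CDK4 and CDK6 are shown because these kinases moved in opposite directions in the hairpin groups. They are from RefSeq (GRCh38.p14), run 5′ to 3′ on the gene's own strand over 250 bases before and 50 bases after the start site, and capitals mark CACGTG, the palindromic E-box that MYC and related factors can bind. The CDK4 window is chr12:57752261-57752560 and the CDK6 window is chr7:92836524-92836823, both on the minus strand.
CDK4: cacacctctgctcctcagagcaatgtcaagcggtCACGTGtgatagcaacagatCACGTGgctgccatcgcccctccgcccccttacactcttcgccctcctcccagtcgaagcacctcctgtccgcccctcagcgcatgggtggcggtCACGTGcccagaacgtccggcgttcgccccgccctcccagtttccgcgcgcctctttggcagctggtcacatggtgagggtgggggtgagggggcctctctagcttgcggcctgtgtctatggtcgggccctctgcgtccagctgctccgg
CDK6: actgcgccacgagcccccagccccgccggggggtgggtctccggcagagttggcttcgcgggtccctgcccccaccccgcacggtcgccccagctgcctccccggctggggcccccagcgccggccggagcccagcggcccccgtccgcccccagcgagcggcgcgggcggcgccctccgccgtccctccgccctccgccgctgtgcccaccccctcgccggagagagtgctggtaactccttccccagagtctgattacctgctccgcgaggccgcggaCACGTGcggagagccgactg
The CDK4 window holds 3 matches to CACGTG and 66.0% G or C, and the CDK6 window holds 1 match and 78.0% G or C. The motif is its own reverse complement, so both strands are searched at once. Of 35116 RefSeq windows of this length, 7.3% hold at least 1 match and 0.09% hold 3 or more. Windows of 7 of the 10 genes were used here, and where RefSeq gave several, the window nearest to the annotated gene start was taken. The other CDK6 window holds 0 matches, as do all windows of CCNE1, CDKN1A, CDKN1B, CCND3 (3 windows) and FBXW7 (4 windows). MYC RNA was 117 ± 4.70 CPM in shTMLHE 1 cells, 115 ± 7.86 in shTMLHE 2 cells, 152 ± 2.42 in CCNE1 cells and 182 ± 14.5 in control cells (SD, n = 3), and its part in the values of CDK4 or CDK6 was not tested.

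CDKN1A (ENSG00000124762, chr6:36676460-36687339, plus strand) encodes p21, the inhibitor that p53 induces. It stood at 75.7, 73.2 and 81.1 CPM in shTMLHE 1 cells, at 19.2, 21.9 and 18.3 in shTMLHE 2 cells, at 34.0, 35.1 and 36.1 in CCNE1 cells and at 73.9, 80.6 and 74.7 in control cells. The shTMLHE 1 libraries overlapped with control, above CCNE1 cells, while the shTMLHE 2 libraries were the lowest of all. In CCNE1 cells CDKN1A fell by 1.12 on the log2 scale against control cells, a 2.18-fold difference. With shTMLHE 1 it was 2.18-fold higher than in CCNE1 cells (1.13 ± 0.07, SE, edgeR adjusted p = 5.09e-17). With shTMLHE 2 it was at -0.82 ± 0.08 (edgeR adjusted p = 3.34e-12), but at -0.01 and no longer called once the GC trend was removed. The hairpin groups differed by 1.95 ± 0.07 (edgeR adjusted p = 6.74e-24), and by 1.51 with the trend removed (edgeR adjusted p = 5.03e-21).

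CDKN1B (ENSG00000111276, chr12:12715058-12722371, plus strand) encodes p27, which restrains CDK2 in resting cells and is removed as cells enter S phase. It stood at 22.9, 24.3 and 27.2 CPM in shTMLHE 1 cells, at 61.8, 61.6 and 62.8 in shTMLHE 2 cells, at 42.1, 34.2 and 41.5 in CCNE1 cells and at 32.4, 34.9 and 30.8 in control cells. Here shTMLHE 1 cells were the lowest and shTMLHE 2 cells the highest, the reverse of CDKN1A. Against CCNE1 cells, CDKN1B was at -0.66 ± 0.09 with shTMLHE 1 (SE, edgeR adjusted p = 1.43e-08) and at 0.66 ± 0.08 with shTMLHE 2 (edgeR adjusted p = 1.3e-09). With the GC trend removed these were -0.58 and 0.65. The hairpin groups differed by -1.32 ± 0.08 (edgeR adjusted p = 3.86e-17), 2.50-fold lower with shTMLHE 1. CCNE1 minus control was 0.26 ± 0.09 (edgeR adjusted p = 0.0126) with overlapping libraries, a call that was lost without control replicate 3 (0.22), CCNE1 replicate 1 (0.21) or CCNE1 replicate 3 (0.22).

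FBXW7 (ENSG00000109670, chr4:152320544-152536063, minus strand), the receptor that recognises phosphorylated cyclin E, was scarce in every group. It stood at 6.25, 7.41 and 9.14 CPM in shTMLHE 1 cells, at 12.4, 10.1 and 11.7 in shTMLHE 2 cells, at 2.32, 1.71 and 3.36 in CCNE1 cells and at 1.67, 1.51 and 2.73 in control cells. The hairpin libraries were all above the other 6, and CCNE1 and control cells overlapped at 31 to 53 and 19 to 33 counts per library. FBXW7 was 3.10-fold higher with shTMLHE 1 than in CCNE1 cells (1.63 ± 0.23, SE, edgeR adjusted p = 1.2e-07) and 4.64-fold higher with shTMLHE 2 (2.22 ± 0.23, edgeR adjusted p = 3.19e-11). CCNE1 cells differed from control cells by 0.32 ± 0.28 (edgeR adjusted p = 0.38). The difference between the hairpins, -0.58 ± 0.20 (edgeR adjusted p = 0.0105), lost its call without shTMLHE 1 replicate 1 (-0.46) or shTMLHE 2 replicate 1 (-0.52), and after removal of the GC trend (-0.38). In bulk RNA, here and for the other genes, a change of level in every cell and a change in the number of cells with the transcript cannot be told apart.

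Levels of different genes were compared per length, as CPM per kilobase of exon (RPKM). This length counts all annotated exon bases of a gene, 5802 for CCND3 and 4830 for CCND1. Their longest transcripts have 2394 and 4307 bases. A comparison between genes, such as CCND1 with CCND3, therefore depends on the length used. In control cells the order was CDK4 at 151 ± 4.46, CDK2 at 39.5 ± 1.89, CCND1 at 30.0 ± 0.792, CDKN1A at 25.0 ± 1.20, CCND3 at 16.4 ± 0.572, CCNE1 at 13.0 ± 0.503 and CDKN1B at 11.6 ± 0.733 RPKM (SD, n = 3), and the libraries of CCNE1 and CDKN1B overlapped in this group. CDK6 followed at 0.732 ± 0.141, then CCNE2 at 0.197 ± 0.0310 and FBXW7 at 0.178 ± 0.0599 RPKM, which do not differ beyond their spread. In CCNE1 cells CCNE1 led at 393 ± 13.3 RPKM, ahead of CDK4 at 152 ± 0.650 and CCND1 at 52.6 ± 2.21. In shTMLHE 1 cells CCNE1 at 498 ± 19.2 RPKM was followed by CCND1 at 120.5 ± 3.64 and CDK4 at 45.9 ± 0.516. In shTMLHE 2 cells the order was CCNE1 at 332 ± 8.32, CCND1 at 60.8 ± 0.490, CDK2 at 41.2 ± 1.11 and CDK4 at 37.3 ± 1.75 RPKM. CDK4 RNA thus stood above cyclin D1 RNA in CCNE1 and control cells and below it in both hairpin groups.

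Shares of counts per kilobase within a library do not depend on the scaling between libraries, but they do depend on the exon length used for each gene. Cyclin D1 made up 95.2, 95.2 and 94.5% of D-type cyclin transcripts in shTMLHE 1 cells, 83.4, 83.1 and 84.2% in shTMLHE 2 cells, 74.6, 76.2 and 74.3% in CCNE1 cells and 64.7, 64.9 and 64.3% in control cells. CDK6 made up 6.85, 6.15 and 6.14% of CDK4 plus CDK6 transcripts in shTMLHE 1 cells, 18.5, 15.7 and 17.0% in shTMLHE 2 cells, 0.543, 0.561 and 0.751% in CCNE1 cells and 0.389, 0.593 and 0.474% in control cells. CDK4 thus remained the main D-cyclin kinase transcript in all 4 groups. CDKN1A made up 75.3, 73.5 and 73.3% of CDKN1A plus CDKN1B transcripts in shTMLHE 1 cells, 22.3, 24.7 and 21.2% in shTMLHE 2 cells, 42.6, 48.6 and 44.5% in CCNE1 cells and 67.8, 68.0 and 69.1% in control cells. Cyclin E1 made up 99.8 ± 0.036%, 99.3 ± 0.117%, 99.9 ± 0.0145% and 98.5 ± 0.262% of cyclin E transcripts in shTMLHE 1, shTMLHE 2, CCNE1 and control cells (SD, n = 3). Without any correction for GC content, the groups did not overlap in any of these shares except that of CDK6 between CCNE1 and control cells. An exact two-sided permutation test of 3 against 3 libraries cannot go below p = 0.1, which is the value for 15 of the 16 comparisons of shares (adjusted p = 0.107), and CDK6 between CCNE1 and control cells gave p = 0.3 (exact permutation test). With the GC trend removed, the CDK6 share was 4.83% in shTMLHE 1 cells, 8.27% in shTMLHE 2 cells, 0.887% in CCNE1 cells and 1.03% in control cells, so its rise with shTMLHE 2 was smaller under that treatment and the order of CCNE1 and control cells turned. The cyclin D1 share was then 94.5 ± 0.321% in shTMLHE 1 cells, 78.7 ± 0.511% in shTMLHE 2 cells, 77.9 ± 0.783% in CCNE1 cells and 70.1 ± 0.738% in control cells (SD, n = 3), which leaves shTMLHE 2 and CCNE1 cells apart by less than the SD of the CCNE1 libraries. The CDKN1A share was then 74.8 ± 1.52% in shTMLHE 1 cells, 30.7 ± 1.85% in shTMLHE 2 cells, 41.3 ± 3.22% in CCNE1 cells and 61.7 ± 1.18% in control cells, a smaller gap between shTMLHE 2 and CCNE1 cells in the same direction.

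**Figure D3:**
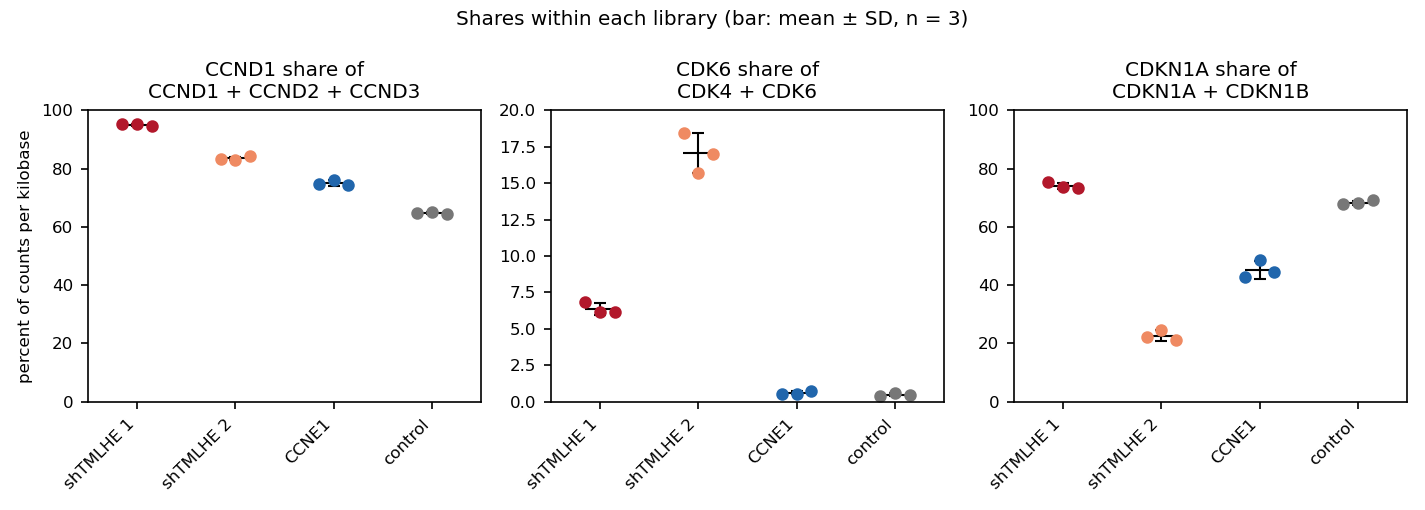
Share of counts per kilobase within each library, in percent, for cyclin D1 among D-type cyclins, CDK6 among CDK4 plus CDK6 and CDKN1A among CDKN1A plus CDKN1B, with 1 point per library and a bar at the mean ± SD (n = 3). The middle panel ends at 20%. Cyclin D1 reaches 95.2% in a shTMLHE 1 library and lies at 64.3 to 64.9% in control cells, and the CDKN1A share is 74.0% in shTMLHE 1 cells and 22.7% in shTMLHE 2 cells.

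Genes of low GC content tended to be higher and genes of high GC content lower in hairpin cells, and the 10 genes span 36.9% (CCNE2) to 58.1% (CDKN1A) GC in their longest transcript. For genes of the GC content and length of CDK6 (39.5% GC) the trend over all genes was 0.72 with shTMLHE 1 and 1.23 with shTMLHE 2 against CCNE1 cells, and for those of CCNE2 it was 0.46 and 1.03. The changes of CDK6 and CCNE2 were larger than their trend with both hairpins, and CCNE2 still passed at 0.70 and 1.73 after its removal (edgeR adjusted p = 0.0214 and 7.19e-08). For CDKN1A the trend was -0.37 with shTMLHE 1 and -0.82 with shTMLHE 2, and the shTMLHE 2 value equals the change of CDKN1A itself in those cells, -0.82. For CDK4 (53.6% GC) the trend was -0.23 and -0.49, which leaves most of its change of -1.73 and -2.03. FBXW7, at 45.9% GC, kept 1.42 and 1.80 with the trend removed. Under total counts in place of TMM the median of all genes moved by 0.39 with shTMLHE 1 and by 0.53 with shTMLHE 2, and 75.9% and 70.7% of the called genes were then higher, against 50% and 50.4% with TMM. For shTMLHE 1 minus shTMLHE 2 the called genes were 42.3% higher under total counts and 51.9% with TMM.

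**Figure D4:**
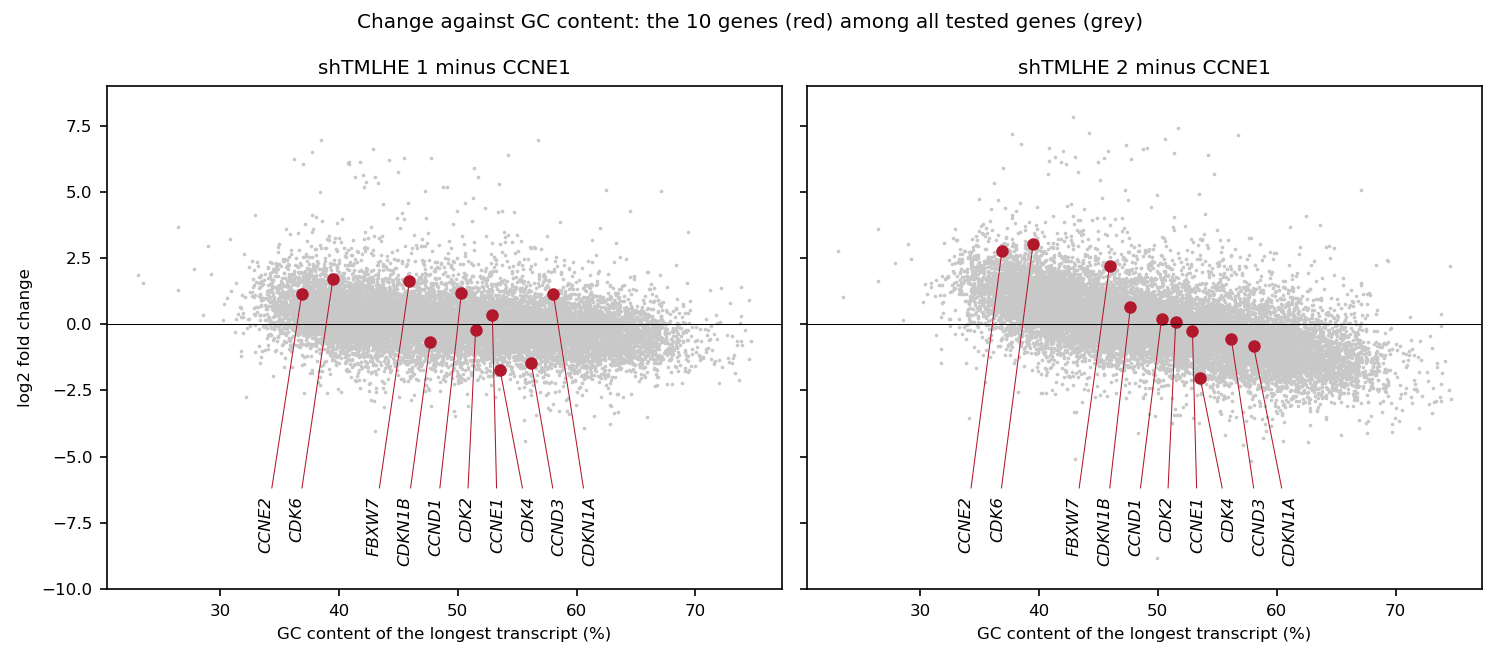
Log2 fold change (edgeR) against the GC content of the longest transcript in percent, for shTMLHE 1 minus CCNE1 and shTMLHE 2 minus CCNE1, with each tested gene as a grey dot and the 10 genes in red. The cloud slopes downward, more steeply with shTMLHE 2, where CDKN1A (58.1% GC, -0.82) lies along it, CCNE2 (36.9% GC, 2.76) lies above its middle and CDK4 (-2.03) lies low in it.

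**Figure D5:**
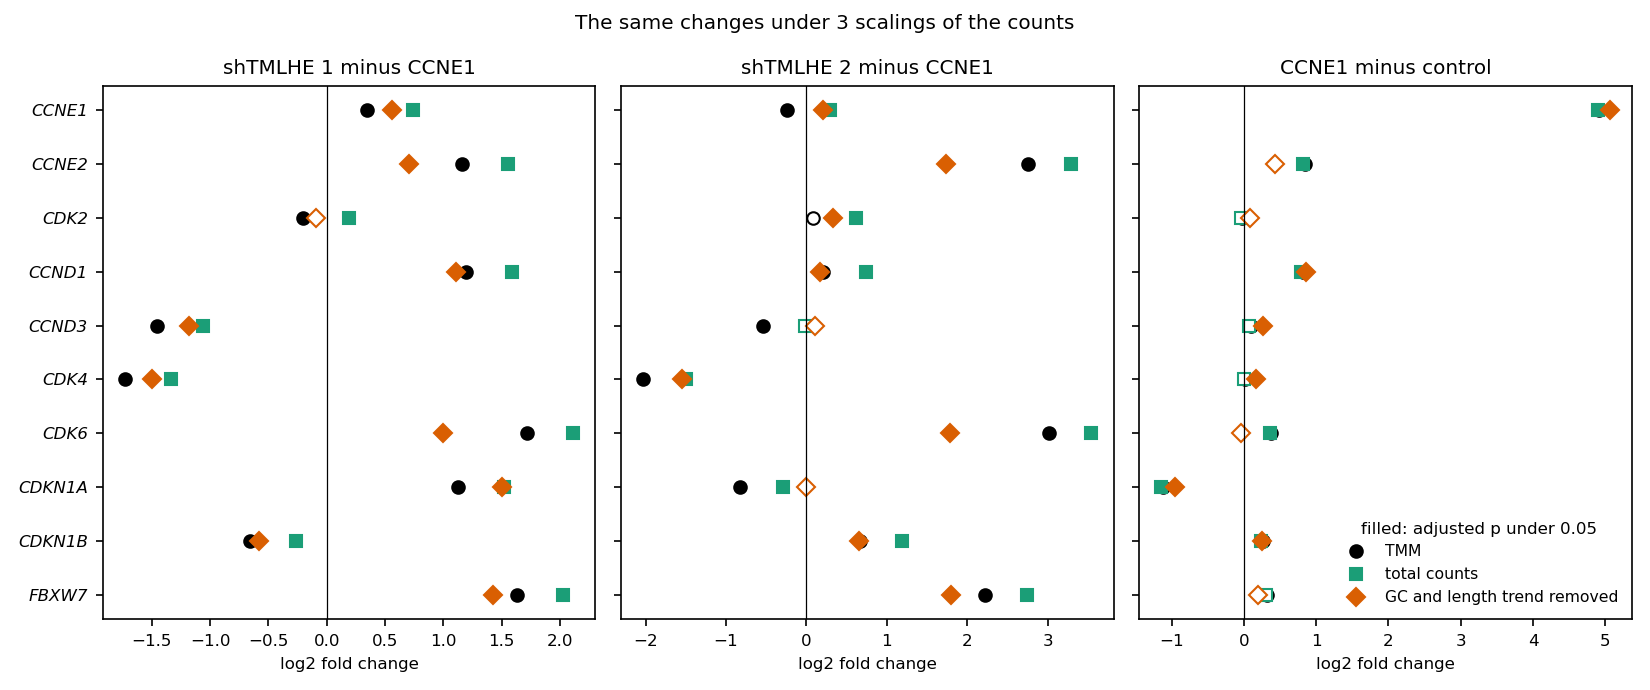
Log2 fold change of each gene under TMM scaling (circles), total counts (squares) and after removal of the GC trend (diamonds), for shTMLHE 1 minus CCNE1, shTMLHE 2 minus CCNE1 and CCNE1 minus control. Filled symbols passed an adjusted p of 0.05. CDK4 stays at or below -1.34 in the first 2 panels, while CCNE1, CCND3 and CDKN1A with shTMLHE 2 and CDK2 with shTMLHE 1 change sign or lose their call.

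Other regulators of G1 and S entry were read from a list of 29 genes, of which 27 were tested. Of these, 55.6% were called in CCNE1 minus control, 63% with shTMLHE 1, 85.2% with shTMLHE 2 and 85.2% between the hairpins. The shares of all tested genes were 44.2%, 60.7%, 73% and 60.3%. Between CCNE1 and control cells 11 rose and 4 fell (median 0.16), among them CCNA2, the cyclin that takes over CDK2 in S phase, at 0.74 ± 0.06, the ligase scaffold CUL1 at 0.66 ± 0.07 and CDKN2C, an inhibitor of CDK4 and CDK6, at 0.52 ± 0.05 (SE). With the GC trend removed 7 rose and 6 fell (median -0.05), and these 3 genes kept their direction. Between shTMLHE 1 and CCNE1 cells 6 rose and 11 fell (median -0.13), but under total counts 17 rose and 4 fell, and with the GC trend removed 8 rose and 8 fell. CDK1, the mitotic kinase, rose by 1.92 ± 0.08 and WEE1, which inhibits CDK1, by 1.23 ± 0.07. CKS1B, the cofactor for CDKN1B destruction, was at -1.04 ± 0.05 and RBX1, the ring subunit of FBXW7 and SKP2 ligases, at -0.95 ± 0.05. With the GC trend removed, CDK1 was at 1.66, WEE1 at 0.67, CKS1B at -0.80 and RBX1 at -0.85 with shTMLHE 1. Between shTMLHE 2 and CCNE1 cells 12 rose and 11 fell, against 17 and 7 under total counts and 9 and 11 with the GC trend removed. CDK1 was at 2.15 ± 0.08, CCNA2 at 1.10 ± 0.05 and RBX1 at -0.91 ± 0.05. With the trend removed they were at 1.33, 0.65 and -1.14. CDKN2A, the locus of p16, was at -0.49 ± 0.04 with shTMLHE 1 and -1.13 ± 0.04 with shTMLHE 2, but once the GC trend was removed it was at 0.15 and 0.08. Likewise PKMYT1, another inhibitor of CDK1, was at -1.09 ± 0.05 with shTMLHE 2 and at 0.27 with the trend removed. Between the hairpins 9 were higher and 14 lower with shTMLHE 1 (median -0.22), against 8 and 7 with the GC trend removed. Among them were SKP2, the receptor that marks CDKN1B for destruction, at -1.27 ± 0.06, and CDKN1C (p57) at 2.29 ± 0.17. With the trend removed they were at -0.85 and 1.59.

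Beside CDKN1A, 19 of 20 other p53 targets were tested. Between CCNE1 and control cells 2 rose and 3 fell (median -0.05), with CCNG1 at 0.53 ± 0.06 and TP53I3 at -0.46 ± 0.10, so 5 of 19 (26.3%) were called, beside 44.2% of all tested genes. With the GC trend removed 1 rose and 2 fell, and CCNG1 was at 0.14. Between shTMLHE 1 and CCNE1 cells 8 rose and 5 fell (median 0.24), and between shTMLHE 2 and CCNE1 cells 8 rose and 6 fell (median 0.16), while total counts gave 12 and 3, and 13 and 4. The called shares were 68.4% with shTMLHE 1 and 73.7% with shTMLHE 2, beside 60.7% and 73% of all tested genes. MDM2, the ligase that degrades p53, was higher by 1.25 ± 0.13 with shTMLHE 1 and by 1.74 ± 0.13 with shTMLHE 2, whereas the apoptosis gene BAX was at -0.89 ± 0.06 and -1.61 ± 0.06 and FDXR at -0.98 ± 0.06 and -2.44 ± 0.06 (SE). GADD45A was at 0.40 ± 0.06 and 0.96 ± 0.06. With the GC trend removed, MDM2 was at 0.63 with shTMLHE 1 and 0.72 with shTMLHE 2, and BAX at -0.34 and -0.59. FDXR was then at -0.52 and -1.38, and GADD45A at 0.68 and 1.37. Between the hairpins 7 were higher and 6 lower with shTMLHE 1 (median 0.12), with FDXR at 1.46 ± 0.07 and SESN2 at 1.09 ± 0.07. Of the list, 68.4% were called there, beside 60.3% of all tested genes. With the GC trend removed, FDXR was at 0.86 and SESN2 at 0.60 between the hairpins. The list thus held genes on both sides of 0 in each hairpin comparison.

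Of 12 proliferation genes, 11 rose and 0 fell between CCNE1 and control cells, with a median of 0.33, and under DESeq2-type size factors, upper quartile scaling and total counts the count was the same, while with the GC trend removed 10 rose and 0 fell. TOP2A, which untangles replicated DNA, rose by 1.15 ± 0.04, the replicative helicase subunit MCM5 by 0.68 ± 0.04 and MKI67, the gene of the Ki-67 antigen, by 0.67 ± 0.05 (SE). Between shTMLHE 1 and CCNE1 cells 4 rose and 7 fell (median -0.36), with MCM5 at -0.95 ± 0.04, the helicase subunit MCM2 at -0.85 ± 0.04 and TOP2A at 0.89 ± 0.04. Between shTMLHE 2 and CCNE1 cells 6 rose and 6 fell (median -0.08, and 2 and 6 with the GC trend removed), with MCM5 at -2.08 ± 0.04 and CDC20, an activator of the anaphase ligase, at -1.44 ± 0.03. Under total counts these became 6 and 5 with shTMLHE 1 and 8 and 4 with shTMLHE 2, so no direction for the list as a whole held. With the GC trend removed, MCM5 was at -0.89 with shTMLHE 1 and -1.62 with shTMLHE 2. MCM2 was then at -0.65 and TOP2A at 0.38 with shTMLHE 1, and CDC20 at -0.56 with shTMLHE 2. TOP2A with shTMLHE 2, at 1.04 under TMM, became 0.01 and was no longer called. With TMM, 91.7% of the list were called in CCNE1 minus control, 91.7% with shTMLHE 1 and 100% with shTMLHE 2. The shares of all tested genes were 44.2%, 60.7% and 73%. Summed over the 12 genes the level was 2872 to 2940 CPM in shTMLHE 1 cells, 2553 to 2624 in shTMLHE 2 cells, 3514 to 3517 in CCNE1 cells and 2710 to 2758 in control cells. The order of these sums over the groups rests on TMM scaling, and a link of proliferation to the values of CDK4 or CDK6 was not tested.

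By Pearson's r of log2 CPM over the 12 libraries, among 11683 genes, CDK4 was most like RPLP0, a ribosomal protein gene (r = 0.999), CDK6 most like IL6ST (0.994), CCND1 most like DIAPH1 (0.993) and CCND3 most like DCAF15 (0.994). CDKN1A was most like the mitochondrial gene MT-CO1 (0.992), CDKN1B most like GINS1 (0.980), CCNE1 most like PDE1C (0.988), CCNE2 most like ACBD3 (0.991), CDK2 most like POLR2D (0.968) and FBXW7 most like NBPF1 (0.989). These values are descriptions: the 12 libraries form 4 tight groups that share depth and GC make-up, so r reflects the order of 4 group means.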

How the data were processed

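RNA counts were analysed for 12 libraries in 4 groups of 3, each placed by its label. The deposited table holds whole-number read counts per gene, which the authors made without normalizing them, with the exon length of each gene in bases as another deposited column. Per the submitters' processing notes, STAR 2.6.1 was used with the GRCh38 build. Which program counted the reads, with which strand setting, is not given in the sources used here. Exon lengths equalled those of GENCODE 29 for 100% of genes, and coordinates and GC content came from that annotation. The deposited FPKM, which the authors computed, already carry a scaling between libraries and were used in an alternative only.

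Counts were tested with edgeR 4.0.16 (R 4.3.3). filterByExpr by group left 15378 genes to test and removed 43357. All 12 libraries entered a robust quasi-likelihood fit with TMM scaling and a mean for each group (8 residual degrees of freedom), and p-values received Benjamini-Hochberg adjustment across the tested genes. CCNE2 exceeded the filter's level in every library of 3 groups, the other 9 genes in all 4. Shares within a library were compared by exact two-sided permutation tests, adjusted over 16 comparisons. The GC and length trend was fitted per library over all tested genes with mgcv 1.9.3.

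Alternatives were RLE, upper quartile and total-count scaling, 2 other filters, DESeq2 1.42.0, limma-voom (limma 3.58.1), the replicate number as a block, fits of only the compared groups, the trend removed with and without the block, each library left out, a threshold of 0.01 and FPKM on a log2 scale with pseudocounts of 0.1 and 1 (limma-trend). The members and lists were chosen with earlier results of these data known. Named were all members, TMLHE, and of each list up to 5 genes per comparison by smallest p among called genes averaging at least 1 log2 CPM, of which a selection is printed. MYC, CCND2, marker genes and the genes that overlap members were named outside this rule.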

Additional observations from a re-analysis of the deposited data

Results flagged for a closer look

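CCNE1, CDKN1A and CDKN1B stood out because each was called in opposite directions with the 2 hairpins against the same CCNE1 libraries, and because the direct comparison of shTMLHE 1 with shTMLHE 2 also passed. For CCNE1 that difference was 0.58 ± 0.03 (SE, edgeR adjusted p = 3.13e-18), but its fall with shTMLHE 2 became a rise of 0.29 under total counts and of 0.20 with the GC trend removed. For CDKN1A it was 1.95 ± 0.07 (edgeR adjusted p = 6.74e-24), and with the trend removed shTMLHE 2 was no longer called against CCNE1 cells (-0.01), while the hairpins still differed by 1.51 (edgeR adjusted p = 5.03e-21). For CDKN1B it was -1.32 ± 0.08 (edgeR adjusted p = 3.86e-17), and its opposite directions were called under each of the scalings run.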

How the results depend on the processing

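Of 40 member results, 28 kept their side of the threshold in all 25 alternatives, and 12 changed in at least 1. Among the 28, CDK2 in CCNE1 minus control, called in none, was at -0.02 and turned to 0.08 with the GC trend removed. CDK6 in CCNE1 minus control was at 0.38, and became -0.0389 once the GC trend was removed and -0.0406 with the replicate block added. CDK2 with shTMLHE 1 became 0.19 under total counts. CCNE1 with shTMLHE 2 became 0.29 under total counts and 0.20 with the trend removed, with or without the block. CCND3 with shTMLHE 2 became 0.10 with the trend removed and 0.11 with the block added. The difference in the CDK6 share between CCNE1 and control cells, 0.133 points, became -0.148 with the trend removed and ran from 0.0668 to 0.187 with a library left out. In each case the cause was not tested.

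The 5 members called higher in CCNE1 minus control were 3 with limma-voom, 3 in a fit of those groups alone, 3 with log2(FPKM + 1), 2 at a threshold of 0.01 and 2 to 5 with a library left out. The 4 members called lower with shTMLHE 2 were 2 under total counts, 1 with the trend removed and 1 with the block added. The 23 listed regulators called between the hairpins were 15 with the trend removed and 13 with the block added.

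No pairing by replicate number was detected: deviations of same-numbered libraries correlated at -0.0465 to 0.0263 over 18 pairs. Differently numbered libraries correlated at -0.0309 to 0.034 over 36 pairs. With the replicate number as a block, 0 of 56 results changed, and 9231, 11123, 6624 and 9125 genes were called with shTMLHE 1, with shTMLHE 2, in CCNE1 minus control and between the hairpins, against 9338, 11224, 6802 and 9277 without it. Depth limits CCNE2 (9 to 29 counts per CCNE1 or control library) and FBXW7 (19 to 53) most.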
